A study of Mus musculus with 6 samples.

Results

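The immediate early response, represented by 10 classic genes, was followed in mouse embryos cultured in cavities of different width. Fos, Fosb, Jun, Junb, Egr1, Ier2, Ier3, Atf3, Nr4a1 and Btg2 were chosen by symbol from array features that name exactly 1 gene. All 10 were found among the 19938 genes so named, each with 1 feature. The narrow group held 3 samples of CD1 embryos collected at embryonic day 5.0 and cultured for 8 hours at a cavity diameter of 90 µm, and the wide group held 3 samples from the same stock, stage and culture time at 180 µm. CD1 is an outbred stock, and neither group carried a mutation or received an agent according to the labels. Each sample pooled 30 whole embryos, so each value mixes the embryonic and extraembryonic tissues of the egg cylinder, and fewer cells of a type cannot be told apart from less RNA per cell. Samples are numbered 1 to 3 in each cavity as in their titles. The series asked how embryos with and without external mechanical cues differ.

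Immediate early genes are transcribed within minutes of a stimulus, because the factors that switch them on are already present in the cell. Growth factors acting through the ERK pathway, actin dynamics acting through SRF and its MRTF partners, cAMP acting through CREB, stretch, and the handling or dissociation of tissue all induce them in many cell types. Their transcripts are short-lived, so a brief pulse early in a culture can be over long before the RNA is collected. Many of their products are transcription factors, among them the Fos and Jun proteins, which pair to form AP-1.

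The values were log2 array signals between 4.33 and 14.31, and array medians lay between 7.62 and 7.67. Each gene has its own probes, so levels were compared between samples and not between genes, and without a measured background a dim gene could not be told from an absent one. The arrays numbered 1 stood apart in both cavities, with the first principal component (38.5% of the variance) at -10.6 for narrow 1 and -8.01 for wide 1, and between 2.76 and 5.87 for the other 4 arrays. Epiblast, visceral endoderm and extraembryonic ectoderm markers were measured by 5, 6 and 5 genes. The mean log2 level of the 5 extraembryonic ectoderm markers was 11.27 to 11.37 in narrow samples and 11.38 to 11.46 in wide samples, without overlap. The narrow minus wide difference was -0.22 for Esrrb, -0.21 for Bmp4 and -0.10 for Cdx2, while Elf5 was at 0.04 and Eomes at -0.0007, and none was called. By the median deviation of the 5 markers from their own means over all samples the groups overlapped, at -0.056 to -0.007 in narrow and -0.02 to 0.107 in wide samples. The ranges of the mean level overlapped for the epiblast list (11.09 to 11.21 in narrow and 11.12 to 11.25 in wide) and for the visceral endoderm list (11.54 to 11.59 in narrow and 11.54 to 11.60 in wide). The blood and macrophage list (4 genes measured, 6.64 to 6.82 in narrow and 6.68 to 7.05 in wide) and the decidua and stroma list (5 genes, 7.45 to 7.54 in narrow and 7.44 to 7.52 in wide) overlapped as well, as did those of parietal endoderm (4 genes, 11.71 to 11.77 in narrow and 11.70 to 11.73 in wide) and of the ectoplacental cone and giant cells (3 genes measured, 9.02 to 9.24 in narrow and 8.98 to 9.10 in wide). What these tissue markers contribute to the values below was not tested.

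Between narrow and wide cavities, none of the 10 genes passed the threshold, an adjusted p of 0.05 over all genes. With limma and Benjamini-Hochberg adjustment over 19938 genes, 0 of 10 members and 0 genes in all (0.0%) were called, and the adjusted p was 1.00 for each member. Ier2 alone had an unadjusted limma p under 0.05, which is 1 of 10 members, against 3.4% of all genes (1.68% higher and 1.72% lower in narrow). Narrow and wide samples did not overlap for 1 of 10 members, again Ier2, against 7.7% of all genes (4.17% with narrow above wide and 3.54% with narrow below). Of the 10 differences 7 were positive and 3 negative, where 50.9% of all genes were positive. The median difference of the members was 0.048 on the log2 scale, and the median of all genes was 0.001. Without wide 1 the members' median was -3.3e-05. With the replicate number as a block, 1 of 10 members, Ier2, was at an unadjusted p under 0.05, against 7.25% of all genes.

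The intervals of the differences were short. For all 10 members, the 95% interval of the difference lay within 1.2-fold either way, the lowest bound being 0.89-fold for Fosb and the highest 1.20-fold for Ier2. The 1.2-fold limit was not part of the planned tests and lies next to that highest bound, so it only describes the intervals. In 9 of 10 the interval included 0. These intervals hold for each gene singly and rest on 3 pools in each cavity. They describe signal ratios on the array, which understate changes of transcripts close to the array's background, and they say nothing of times earlier than 8 hours.

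**Figure D1:**
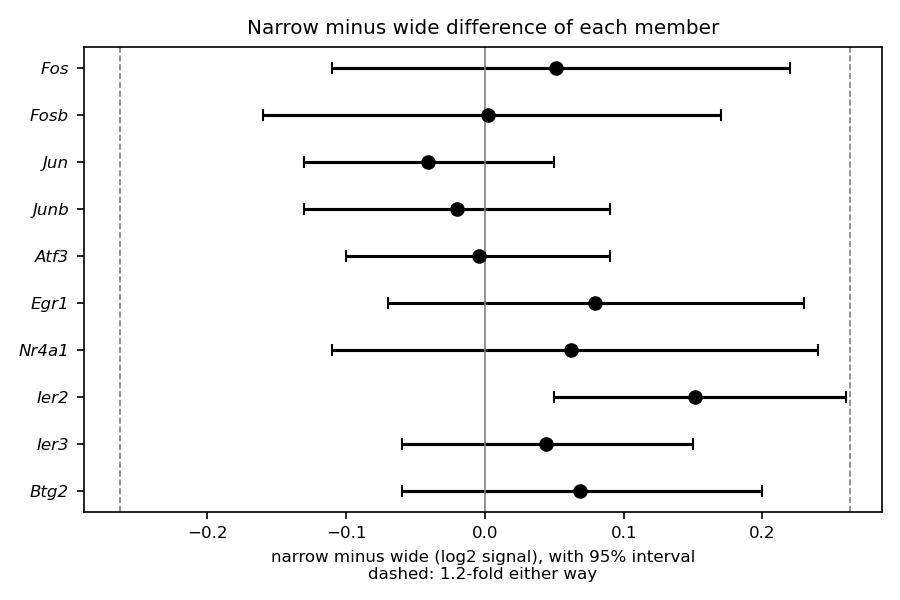
Narrow minus wide difference of each member on the log2 signal scale, with points for the estimate and bars for the 95% limma interval, and dashed lines at 1.2-fold either way. All intervals lie between the dashed lines, which were drawn next to the highest bound. That of Ier2, from 0.05 to 0.26, is the one that does not include 0.

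The AP-1 subunits showed no common direction. Fos, the partner that cannot form dimers with itself and needs a Jun protein to bind DNA, had log2 signals of 8.97, 8.99 and 8.84 in narrow 1, 2 and 3, against 9.03, 8.82 and 8.80 in wide 1, 2 and 3. The highest sample was wide 1 and the lowest wide 3, so the wide samples spanned the whole range of the narrow ones. The difference was 0.05 ± 0.07 (limma SE), with a 95% interval from -0.11 to 0.22.

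The Fos promoter is known for elements that answer to SRF and to CREB. The 250 bases before the RefSeq start of the gene (GRCm38.p6, chr12:85473640-85473889, plus strand) are shown because Fos is the best-studied gene of the family. Capitals mark TGACG, the half-site of the cAMP response element.

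Fos: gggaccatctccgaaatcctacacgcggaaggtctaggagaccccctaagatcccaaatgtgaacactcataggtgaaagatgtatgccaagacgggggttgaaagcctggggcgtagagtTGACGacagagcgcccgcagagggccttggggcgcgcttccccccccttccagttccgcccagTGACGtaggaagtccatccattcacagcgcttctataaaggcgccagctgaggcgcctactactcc

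The half-site began 129 and 66 bases before the gene, and the letters TATAAA began 33 bases before it. The CArG box, the motif bound by SRF, was not found in this window, and bases further upstream were not scanned.

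Fosb, a Fos relative that also pairs with Jun proteins, had signals of 7.66, 7.74 and 7.56 in the narrow samples, against 7.52, 7.76 and 7.67 in the wide samples. Both extremes were wide samples. The difference was 0.0021 ± 0.072 (SE), and it was -0.063 without wide 1 and -0.04 without narrow 2.

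Jun, which can bind DNA as a dimer with itself and drives its own promoter, had 8.93, 8.90 and 8.89 in the narrow samples and 8.95, 8.97 and 8.92 in the wide samples. Narrow lay below wide in 3 of 3 same-numbered pairs, at -0.01, -0.07 and -0.03, yet narrow 1 lay above wide 3, so the groups overlapped. All 6 values fell within 0.08 of each other. The difference was -0.04 ± 0.04 (SE).

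The Jun promoter is shown for comparison with Fos, since it is known for variant AP-1 sites through which Jun regulates itself. It covers the 250 bases before the gene (GRCm38.p6, chr4:95052223-95052472, minus strand), with capitals on TGACATCA, a variant AP-1 site.

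Jun: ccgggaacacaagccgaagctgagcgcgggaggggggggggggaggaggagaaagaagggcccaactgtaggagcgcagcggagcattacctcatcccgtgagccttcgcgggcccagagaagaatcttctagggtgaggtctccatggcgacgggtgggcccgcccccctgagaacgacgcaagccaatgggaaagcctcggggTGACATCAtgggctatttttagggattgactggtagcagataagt

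The variant site began 45 bases before the gene. It was found, on either strand, in 1 of 8 member promoters and in 2.93% of the 32851 promoters of the table.

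Junb, a Jun relative that can oppose Jun on some targets, had 9.32, 9.33 and 9.40 in the narrow samples and 9.33, 9.33 and 9.45 in the wide samples. In both cavities the sample numbered 3 was the highest, and the groups overlapped. The difference was -0.02 ± 0.05 (SE).

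Atf3, a stress-induced factor of the ATF and CREB family that can pair with Jun proteins, had 8.56, 8.53 and 8.55 in the narrow samples and 8.54, 8.60 and 8.52 in the wide samples. Wide 2 was the highest and wide 3 the lowest. The difference was -0.0042 ± 0.041 (SE), with a 95% interval from -0.10 to 0.09.

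**Figure D2:**
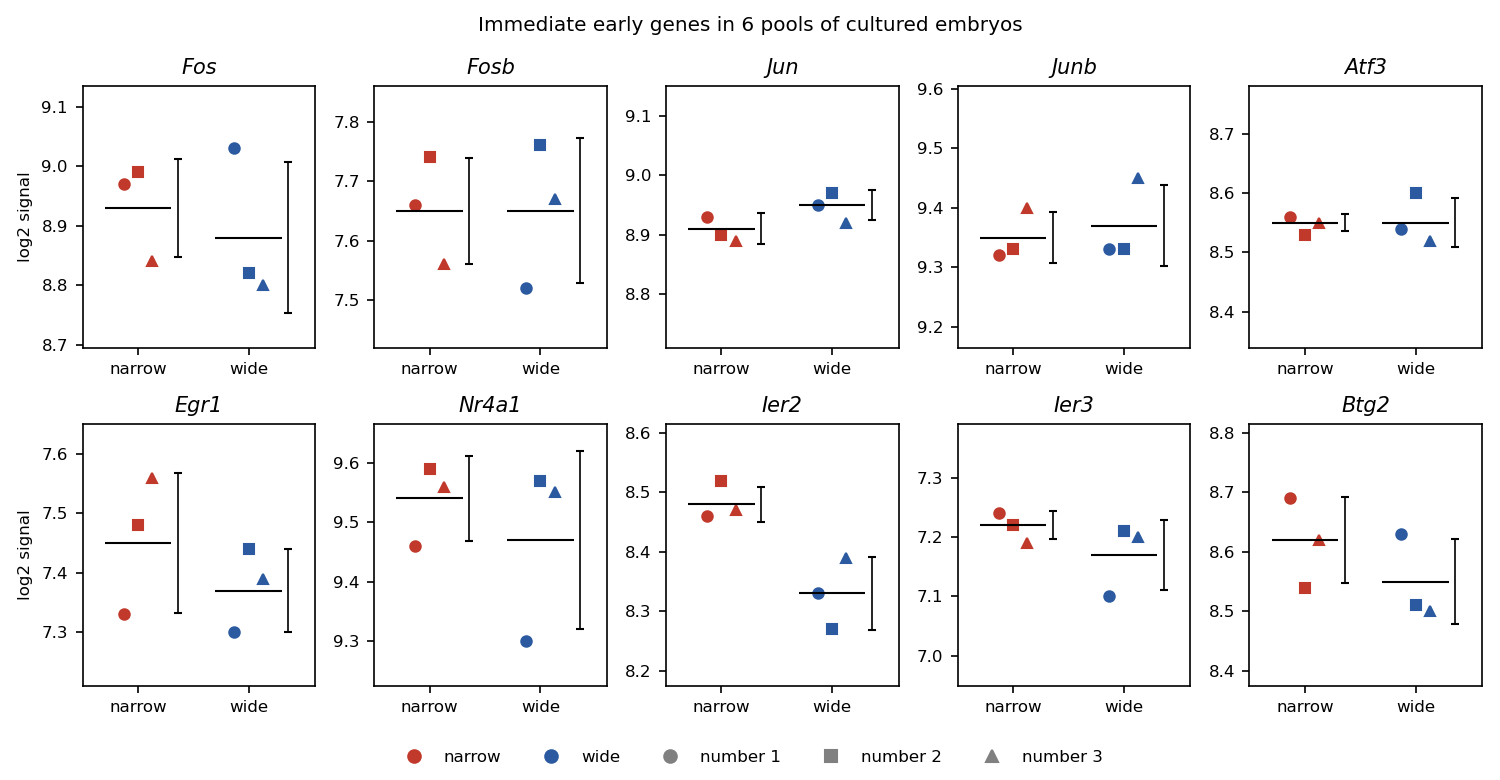
Log2 signal of each member in the 6 samples, with narrow samples (red) left of wide samples (blue), symbols for the replicate number, horizontal lines for the group mean and bars for the SD (n = 3). Every panel spans the same height of the log2 scale. Ier2 is the gene whose groups are apart, with 8.46 to 8.52 in narrow and 8.27 to 8.39 in wide samples.

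Egr1 and Nr4a1 are induced factors outside AP-1. Egr1, a zinc finger factor that follows ERK and SRF activity, had 7.33, 7.48 and 7.56 in the narrow samples and 7.30, 7.44 and 7.39 in the wide samples. Narrow lay above wide in 3 of 3 same-numbered pairs, by 0.03, 0.04 and 0.17, but narrow 1 lay below wide 2 and wide 3. The difference was 0.08 ± 0.07 (SE).

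Nr4a1, an orphan nuclear receptor whose activity is set mainly by its amount, had 9.46, 9.59 and 9.56 in the narrow samples and 9.30, 9.57 and 9.55 in the wide samples. Its pairs also pointed one way, with 0.16 between the samples numbered 1 and 0.02 and 0.01 between the others. Wide 1 was the lowest sample and narrow 1 the next. The difference was 0.06 ± 0.08 (SE), and without wide 1 it was -0.02.

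The Nr4a1 promoter (GRCm38.p6, chr15:101266596-101266845, plus strand) is shown because it holds more copies of the half-site than the Fos window. Capitals mark CGTCA, which is TGACG read on the other strand.

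Nr4a1: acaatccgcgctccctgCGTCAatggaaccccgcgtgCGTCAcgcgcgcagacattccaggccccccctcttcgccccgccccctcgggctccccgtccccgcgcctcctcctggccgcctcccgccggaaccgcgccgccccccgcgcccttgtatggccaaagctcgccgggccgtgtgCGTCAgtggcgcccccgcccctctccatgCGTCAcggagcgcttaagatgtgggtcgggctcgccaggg

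Its copies began 233, 213, 69 and 40 bases before the start used by the table.

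Ier2, Ier3 and Btg2 encode small regulators, and all 3 had positive differences. Ier2, a nuclear protein of the growth factor response with no known enzyme activity, had 8.46, 8.52 and 8.47 in narrow 1, 2 and 3, against 8.33, 8.27 and 8.39 in wide 1, 2 and 3. Every narrow sample lay above every wide sample. The means were 8.48 ± 0.030 in narrow and 8.33 ± 0.061 in wide (SD, n = 3 each), and the same-numbered pairs differed by 0.13, 0.25 and 0.08.

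The Ier2 difference of 0.15 ± 0.05 (SE) corresponded to 1.11-fold, with a 95% interval from 1.03-fold to 1.20-fold. Its unadjusted limma p was 0.011, its adjusted p 1.00, and its rank by p 123 of 19938 genes. In absolute difference 482 genes lay beyond it. An exact two-sided permutation test of Ier2 alone gave p = 0.1, the smallest that 3 against 3 samples allow. Any gene without overlap gets this value, so the test only restates that the Ier2 groups did not overlap. Over the alternative settings the difference ran from 0.12 to 0.18 and the unadjusted limma p from 0.00499 to 0.0453, and the lowest adjusted p was 0.674, with the replicate number as a block.

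Ier3, which acts on survival and ERK signalling, had 7.24, 7.22 and 7.19 in the narrow samples and 7.10, 7.21 and 7.20 in the wide samples. Wide 1 was apart from the other samples on the low side, and the groups overlapped. The difference was 0.04 ± 0.04 (SE), and without wide 1 it was 0.01.

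Btg2, an antiproliferative protein that recruits the deadenylase complex and is induced by p53 as well as by growth factors, had 8.69, 8.54 and 8.62 in the narrow samples and 8.63, 8.51 and 8.50 in the wide samples. Narrow lay above wide in 3 of 3 same-numbered pairs, by 0.06, 0.03 and 0.12, and the groups overlapped. The difference was 0.07 ± 0.06 (SE).

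The Btg2 promoter (GRCm38.p6, chr1:134079156-134079405, minus strand) is shown for its complete cAMP response element, TGACGTCA, in capitals. It is the 1 window with this element among the 8 member promoters scanned.

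Btg2: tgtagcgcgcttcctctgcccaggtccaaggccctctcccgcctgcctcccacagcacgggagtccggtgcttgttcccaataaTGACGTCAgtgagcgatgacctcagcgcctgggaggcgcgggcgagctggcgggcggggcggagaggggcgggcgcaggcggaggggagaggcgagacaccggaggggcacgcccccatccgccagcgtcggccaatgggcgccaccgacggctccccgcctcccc

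Of the 10 members, 8 were matched in the RefSeq promoter table, all except Ier2 and Egr1, and these 8 were scanned on both strands. TGACG occurred in 6 of 8, against 17.8% of the 32851 promoters, and this count includes the complete element. The 32851 promoters were not matched to the members for base composition. Whether the half-site is more frequent in the members than in promoters of like composition was not tested. The complete element TGACGTCA occurred in 1 of 8, against 1.55%. The AP-1 site TGACTCA (4.46% of all promoters) and the CArG box (1.47%) occurred in 0 of 8. At shares this low, 0 of 8 does not set the members apart from all promoters, and bases further upstream were not scanned. CCAAT, a general promoter motif, occurred in 4 of 8, against 33.8%, and TATAAA in 1 of 8, against 12.4%. These are matches of letters in a 250-base window, and the arrays do not show which of them a factor used.

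Among the 10 genes, narrow lay above wide in 3 of 3 same-numbered pairs for 4 (Egr1, Nr4a1, Ier2 and Btg2) and below in 3 of 3 for 2 (Jun and Junb), against 14.8% and 13.9% of all genes. Some of these pairs were near ties. Junb rounded to 9.33 in both samples numbered 2, and Nr4a1 differed by 0.02 and 0.01 in pairs 2 and 3. Whether the samples numbered 2 and 3 are truly paired could not be decided. The pairs differed in which genes they separated most. Between the samples numbered 1, Nr4a1, Fosb, Ier2 and Ier3 were furthest apart, at 0.16, 0.14, 0.13 and 0.13. Between those numbered 2 it was Ier2 and Fos, at 0.25 and 0.17, and between those numbered 3 it was Egr1 and Btg2, at 0.17 and 0.12. Fosb had a difference of -0.11 in that last pair.

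The spread between pools of the same cavity differed among the members. The pooled within-group SD was 0.117 for Nr4a1, 0.107 for both Fos and Fosb and 0.097 for Egr1, higher than in 87.7%, 82.8%, 83.0% and 76.9% of all genes in that order. For Jun it was 0.025 and for Atf3 0.030, at the 6.2 and 9.98 percentiles. The median over the members was 0.065, and over all genes 0.067.

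The replicate number was examined next. An F-test of the number in a limma fit that also held the cavity called 0 of 10 members at adjusted p under 0.05, against 0.00502% of all genes, which is 1 gene. At an unadjusted p under 0.05 it picked 2 of 10 members, Nr4a1 and Egr1, against 18.0% of all genes. The limma adjusted p was 0.222 for Nr4a1 and 0.269 for Egr1. With a variance trend and robust settings Nr4a1 was called (limma adjusted p = 0.0462), together with 5.68% of all genes.

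Nr4a1 averaged 9.38, 9.58 and 9.56 over the 2 samples numbered 1, 2 and 3, and Egr1 averaged 7.31, 7.46 and 7.47. Both samples numbered 1 lay below the other 4 for these 2 genes. Fos and Btg2 ran the other way. Fos averaged 9.00, 8.90 and 8.82 and Btg2 8.66, 8.53 and 8.56 over the same numbers. Both samples numbered 1 lay above the other 4 for Btg2, whereas for Fos narrow 2 lay between them. Samples numbered 1 lay outside the range of the other 4 for 3 of 10 members, against 32.1% of all genes, above it for 1 (12.2% of all genes) and below it for 2 (19.9%). Like the count by unadjusted F-test p, this lies near the share of all genes.

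**Figure D3:**
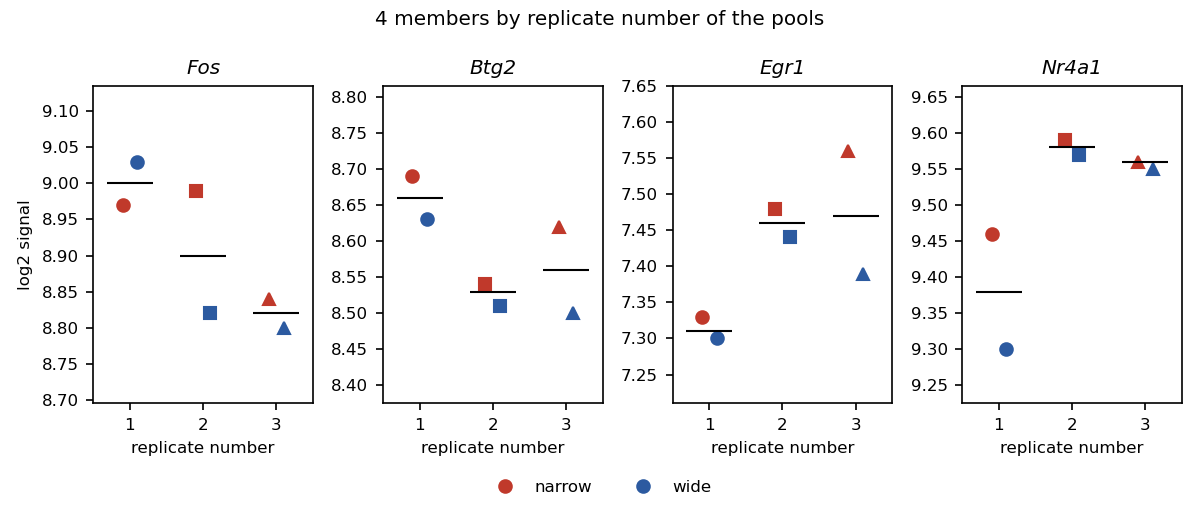
Log2 signal of Fos, Btg2, Egr1 and Nr4a1 by replicate number, with narrow samples in red, wide samples in blue and black bars for the mean of the 2 samples of a number. Fos and Btg2 are highest at number 1 by their means (9.00 and 8.66), and Egr1 and Nr4a1 are lowest there (7.31 and 9.38).

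With the 4 samples numbered 2 and 3 alone, 0 of 10 members were called in narrow against wide cavities. The median difference was then 0.0081 over the members and 0.008 over all genes, and Ier2 was at 0.16. What the numbers stand for is not given in the labels, so the source of these shifts was not tested.

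Other genes of the immediate early response were not called either. Of 35 further genes, all measured, 0 were called, and 1 was higher and 1 lower in narrow at an unadjusted limma p under 0.05, against 1.68% and 1.72% of all genes. The median difference was 0.029. Among the 15 transcription factors, 12 differences were positive and 3 negative, where 50.9% of all genes were positive. Klf6, a zinc finger factor induced by injury, stood at 0.08 ± 0.04 (SE) and Klf10, a TGF-beta inducible factor, at 0.08 ± 0.05. Both, 2 of the 15, were higher in every narrow than in every wide sample, against 4.17% of all genes. Of the listed relatives of Fos and Jun, Fosl2 was at 0.12 ± 0.07, Jund at 0.03 ± 0.05 and Fosl1 at -0.0015 ± 0.043. Fosl2 had the largest difference of these 15 factors, larger in size than in 94.8% of all genes. Its groups overlapped, with 9.68, 9.92 and 9.74 in the narrow samples and 9.55, 9.74 and 9.68 in the wide samples, and its limma adjusted p was 1.00 without and 0.674 with the replicate block. Of the relatives of Egr1, Egr2 was at -0.06, Egr3 at 0.0025 and Egr4 at 0.01, and of those of Nr4a1, Nr4a2 was at 0.06 and Nr4a3 at 0.04.

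Among the 20 effectors and feedback genes, 9 differences were positive and 11 negative. Gadd45b, which activates stress kinase signalling, had 10.15, 10.25 and 10.20 in the narrow samples and 10.06, 10.05 and 10.05 in the wide samples. Its groups did not overlap, and the difference was 0.14 ± 0.04 (SE), with a limma adjusted p of 1.00. Errfi1, a feedback inhibitor of the EGF receptor, had 12.08, 12.04 and 12.01 in narrow and 12.18, 12.20 and 12.08 in wide samples, a difference of -0.11 ± 0.05. The groups did not overlap for 5 of these 20 genes, against 7.7% of all genes, with narrow above wide for 3 (4.17% of all genes) and below for 2 (3.54%).

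Genes that act upstream of the response were likewise not called, in 0 of 13 measured of 16 listed. Elk3, an ETS factor that works with SRF, had the smallest unadjusted limma p, with 8.39, 8.46 and 8.44 in narrow and 8.27, 8.29 and 8.35 in wide samples and a difference of 0.13 ± 0.04 (SE). Rps6ka3, a kinase activated by ERK, stood at 0.08 ± 0.04. For Elk3 and Rps6ka3, 2 of the 13, every narrow sample lay above every wide sample, against 4.17% of all genes. Srf was at 0.02 ± 0.05 and Creb1 at 0.0001 ± 0.044. Among the partners and repressors, 0 of 7 measured of 8 listed were called, with Jdp2, a repressor of AP-1, at 0.10 ± 0.05 and Nab2, a corepressor of Egr factors, at -0.09 ± 0.07. Jdp2 was the 1 of these 7 with every narrow sample above every wide sample, against 4.17% of all genes.

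**Figure D4:**
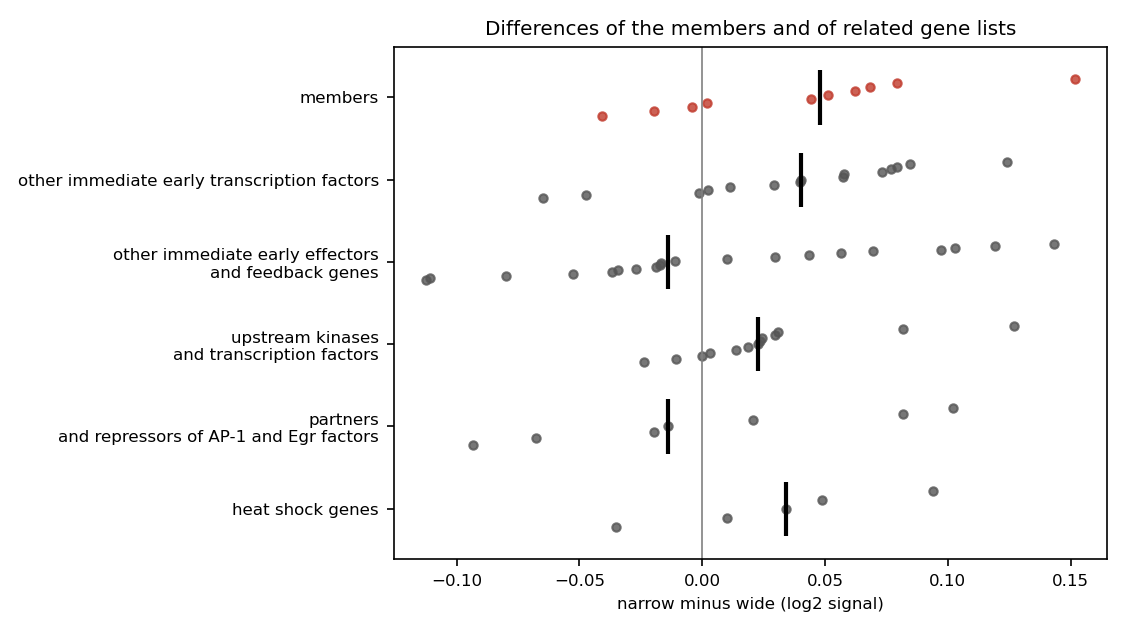
Narrow minus wide differences on the log2 signal scale for the 10 members (red) and 5 related gene lists (grey), 1 point for each gene, with black bars for the list medians. The medians run from -0.014 to 0.048, and points of every list lie on both sides of 0.

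Heat shock genes, which also answer to handling, gave 0 called of 5 measured, with a median of 0.034. Hspa1a, an inducible chaperone with a near-identical copy that makes its signal uncertain, had 7.94, 7.95 and 8.00 in narrow samples and 7.85, 7.86 and 7.90 in wide samples, without overlap. Its difference was 0.09 ± 0.04 (SE). Hsph1, a cochaperone, stood at 0.03 ± 0.04, also without overlap. Narrow thus lay above wide in every sample for 2 of 5 genes, against 4.17% of all genes.

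The genes whose profile over the 6 samples was nearest to a member were found by the root mean square difference of log2 values centred on each gene's mean. Nearest to Ier2 were Foxa1 (0.017), Iftap (0.021), Npy1r (0.022), Gzmb (0.024) and Polr3k (0.024), where the median of all other genes was 0.101. Foxa1 had 9.32, 9.35 and 9.31 in narrow and 9.16, 9.13 and 9.21 in wide samples, without overlap, having been picked for its likeness to Ier2. Nearest to Fos were Pyroxd1 (0.017), Wdr82 (0.024), Blzf1 (0.025), Ilf2 (0.025) and Czib (0.026), with a median of 0.112 over all other genes. Fos and Ier2 shared none of these neighbours, which follows from the distance between their own profiles. With 6 samples and 19938 genes, close matches of this kind are plentiful, and they are given as a description.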

How the data were processed

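Total RNA of the 6 pools was labelled with biotin and hybridized to Affymetrix Mouse Gene 1.0 ST arrays, per the labels' protocols and the design text. The authors deposited log2 signals for each feature; the scale was read from their range. Array medians were near-equal (7.62 to 7.67), but the labels state no normalization, other steps or software. Of 28853 features, 21789 named 1 gene in the platform annotation, 1621 several and 5443 none. Per gene, the feature with the highest mean was kept (19938 genes, no filter on dim genes).

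Narrow minus wide was fitted with limma 3.58.1 (lmFit, eBayes, R 4.3.3) on all 6 arrays without covariate, two-sided, with Benjamini-Hochberg adjustment over all genes. The replicate number was tested by an F-test in the fit with cavity and number. Both were run on simulated data with independent noise for each gene and shifts larger than any member difference. The simulated data lacked the shared shift of the arrays numbered 1. These runs do not show how the tests behave for differences of the members' size. The number of arrays limits the precision, and p-values set each difference against the spread between pools, moderated over all genes. Deviations from group means correlated at 0.516, 0.176 and 0.272 between same-numbered arrays, all above 0.1, so the numbers of the titles were taken to pair the samples and a fit with a replicate block was added. Narrow 2 with wide 3, of unlike number, reached 0.178. Deviations within a group sum to 0, so the shared shift of the arrays numbered 1 by itself raises correlations among the other arrays. The check therefore cannot decide whether the samples numbered 2 and 3 are paired. Promoters came from RefSeq (GRCm38.p6). Members and gene lists were chosen with earlier results of these data known. Named were all members and, from each related list, up to 2 genes with the smallest p, with 5 nearest profiles each for Ier2 and Fos. The listed relatives of Fos, Jun, Egr1 and Nr4a1, the extraembryonic ectoderm markers, Srf and Creb1 were chosen after their values were seen.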

Additional observations from a re-analysis of the deposited data

How the results depend on the processing

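In narrow against wide cavities, limma called 0 members and 0 genes under each of 14 alternatives. The replicate block changed no call, with 0 genes called, a smallest adjusted p of 0.0838 over all genes and 0.674 over the members, and 1446 genes in place of 678 at an unadjusted p under 0.05. Above the median signal, where 9969 genes and 7 members were tested, 384 genes were at an unadjusted p under 0.05. The members' median difference of 0.048 was 0.0081 in the arrays numbered 2 and 3 only, and ranged from -3.3e-05, without wide 1, to 0.055 when each array was left out. Of 137 single member values under alternatives, 128 kept their sign and 9, none of them called, changed it. Many of the 128 could not change. Each member has 1 feature, so the replicate block, signal cut, feature choices and variance settings left its difference as it was. Only renormalizing or leaving arrays out could change a sign. When each array was left out, Fosb ran from -0.063 to 0.059 (below 0 without narrow 1 at -0.003, narrow 2 at -0.04 or wide 1), and was -0.068 in the arrays numbered 2 and 3 only. Junb ran from -0.045 to 0.019 (without wide 3), Nr4a1 from -0.024 (without wide 1) to 0.109 and Atf3 from -0.021 to 0.019 (without wide 2, and 0.003 without narrow 2). Atf3 was 0.006 with arrays centred on their medians. For the replicate number, the 1 gene called became 2 with a mean of each gene's features, 2 over all features, 696 above the median signal and 1132 with a variance trend and robust settings, which also called 1 member, Nr4a1. Leaving out each array gave 0 to 6 genes and 0 members. The cause was not tested. No measure of array background came with the values, which limits dim genes such as Ier3, at the 37.3 percentile of signal.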
